A study of Mus musculus with 24 samples.

Results

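The response of Rosa26-KO cells to rhCTHRC1 was measured by RNA sequencing in 6 of the 24 libraries of the series, 3 given rhCTHRC1 and 3 given vehicle, chosen by their labelled genotype and treatment. The cells are MOVAS, a line of mouse aortic smooth-muscle cells, and rhCTHRC1 is recombinant human CTHRC1 added from outside. The groups used are Rosa26-KO with rhCTHRC1, Adam9-KO with rhCTHRC1, ADAM9i (labelled as genotype WT and given an ADAM9 inhibitor) with rhCTHRC1 and WT with rhCTHRC1, each beside the same cells with vehicle, and each with 3 libraries. Rosa26-KO cells carry an edit at the Rosa26 locus, which is commonly used as a neutral site, so they stand as the edited control beside Adam9-KO cells. The edit is present with and without rhCTHRC1, and the response is therefore a difference within edited cells. Dose, time, the vehicle, the guide used, and whether the cells are 1 clone or a pool are details that the sources used here do not give. The labels also do not say whether replicates were separate cultures, so all p-values measure only the spread between these libraries, which may be technical.

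CTHRC1 is a secreted protein with a short collagen-like stretch, made by activated fibroblasts and by smooth-muscle cells of injured arteries, and it has been linked to cell migration, to the turnover of collagen matrix and to Wnt signalling. Smooth-muscle cells of the aortic wall can leave the contractile state, in which serum response factor and its coactivator myocardin keep actin and myosin genes on, for states in which they proliferate, secrete matrix or take on inflammatory genes. The gene groups below follow that order: contractile and growth-factor-induced genes, the machinery of protein synthesis, defence genes, lipid metabolism, the matrix, and receptors and their ligands.

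The 6 libraries held 60859964 to 62606488 counts with rhCTHRC1 and 62007040 to 63210105 counts with vehicle. Levels are given as CPM, a gene's read count set against the total of its library after TMM scaling (trimmed mean of M values), and a count of 0 in a library allowed up to 0.0475 to 0.0493 CPM before scaling, for counting error only. Mitochondrially encoded genes took 4.10% to 4.37% of counts with rhCTHRC1 and 3.91% to 4.05% with vehicle. More genes had a count with rhCTHRC1, 22635 to 22827, against 21905 to 21988 with vehicle. Gt(ROSA)26Sor, the noncoding transcript of the edited locus (chromosome 6, 113067428 to 113077333), had 4.48, 5.07 and 9.19 CPM in the rhCTHRC1 libraries, against 5.65, 6.55 and 11.8 CPM in the vehicle libraries, and did not pass the test (log2 change -0.36 ± 0.30, adjusted p = 0.371). Without replicate 3 of the treated cells it did pass (-0.75, adjusted p = 0.0244). Counts per gene cannot show a small edit, and these values therefore do not check the genotype. The neighbouring gene Thumpd3 was at 27.6, 28.8 and 27.5 CPM with rhCTHRC1 and 32.6, 37.6 and 31.6 CPM with vehicle (log2 change -0.28 ± 0.08, adjusted p = 0.0103, or 0.0825 without replicate 2 of the vehicle cells). The transcripts lie on opposite strands and overlap, and reads of the pair can be told apart only if strand was used in counting, which no source used here states. Adam9 had 278, 282 and 298 CPM in the rhCTHRC1 libraries, against 231, 239 and 242 CPM in the vehicle libraries, a rise of 0.27 on the log2 scale, and averaged 141 CPM with rhCTHRC1 and 138 CPM with vehicle in Adam9-KO cells, where counts of the gene therefore remained. Cthrc1, the mouse gene of the added protein, had 0 counts in all 6 libraries and was not detectable at this depth. All 9 smooth-muscle markers had counts, but Myh11 stayed under 1 CPM in all 6 libraries and Cnn1 in all 3 vehicle libraries. The summed level of the 9, in CPM before scaling, was 109 to 114 with rhCTHRC1 and 455 to 465 with vehicle. Acta2 made up most of the vehicle sum, at 402.8 to 412.7 CPM, but 40.16 to 43.95 CPM of the treated sum. The fall of the sum was therefore that of Acta2. Mylk, Des, Myl9 and Lmod1 were higher in every treated library than in every vehicle library, and Tagln and Myocd were lower. Endothelial markers summed to 7.39 to 8.02 against 2.42 to 2.97, with Cdh5 at 0 in all 6 libraries and Vwf as the main member, and markers of macrophages and lymphocytes to 5.29 to 7.60 against 3.55 to 4.96, with Adgre1 and Cd3e at 0. Epithelial markers summed to at most 0.258. Fibroblast markers summed to 476 to 499 against 292 to 316, most of it Pdgfra. All of these sums but the epithelial one moved with the treatment, and their part in the results was not tested. A change in the share of cells of a type and a change in RNA per cell cannot be told apart in bulk libraries.

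A large share of the tested genes differed between treated and vehicle cells. A gene is called here when its Benjamini-Hochberg adjusted p in edgeR's quasi-likelihood test is under 0.05, and at this threshold 45.2% of tested genes were called, 22.0% higher and 23.3% lower with rhCTHRC1 (8413 of 18594, 4087 higher and 4326 lower). The treated and vehicle libraries did not overlap for 55.5% of tested genes. The median log2 change over all tested genes was 0.03. Scaled by library size alone, the split was 5084 higher and 3486 lower around a median of 0.10, so the direction of changes near 0 depends on the scaling. Of the 1205 genes called with at least a 2-fold change, 6.48% of those tested, 885 were higher and 320 lower.

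The direction differed with the level of the gene. Among 2468 genes above 100 CPM on average over the 6 libraries, 24.3% were called higher and 50.3% lower. Among 3629 genes between 1 and 10 CPM, 29.7% were called higher and 10.5% lower. Gene types differed too, by the GENCODE vM21 annotation: of 13954 protein-coding genes 26.2% were higher and 28.7% lower, of 618 lincRNA genes 15.9% and 3.88%, and of 794 antisense genes 13.7% and 1.13%. Processed pseudogenes ran the other way, with 2.11% higher and 13.7% lower of 1566. Pseudogenes share sequence with their parent genes and antisense genes overlap their partners, so part of their counts may belong to those genes. In either direction 54.8% of protein-coding genes were called, as were 63.0% of genes between 10 and 100 CPM. Counts of list members below stand against these shares as well as against the 45.2% of all tested genes.

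**Figure D1:**
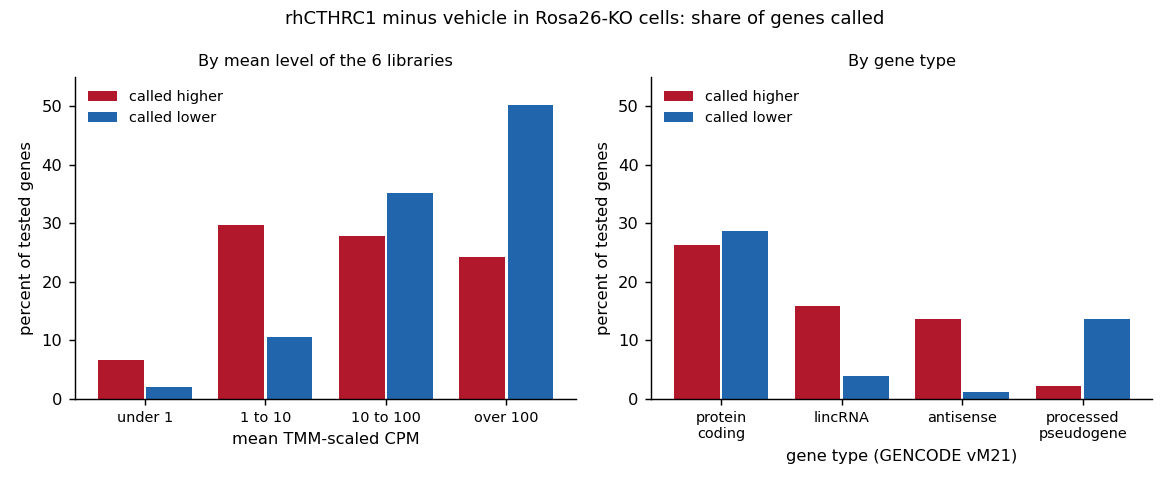
Share of tested genes called higher (red) or lower (blue) with rhCTHRC1 in Rosa26-KO cells, in percent, by mean level over the 6 libraries (left, TMM-scaled CPM) and by gene type (right). Genes above 100 CPM were called lower in 50.3% and higher in 24.3%, and antisense genes higher in 13.7% and lower in 1.13%.

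Contractile genes did not move as 1 group. Acta2, smooth-muscle alpha-actin, gave one of the largest falls of any gene, while Des, Mylk and Myl9 rose. Of 23 tested contractile proteins 9 were higher and 8 lower, against 22.0% higher and 23.3% lower of all tested genes, with a median log2 change of 0.17. Acta2 (chromosome 19, 34241090 to 34255590) had 39.2, 40.6 and 42.98 CPM in the rhCTHRC1 libraries, against 416, 414 and 423 CPM in the vehicle libraries. All 3 treated libraries lay far below all 3 vehicle libraries (log2 change -3.35 ± 0.08, adjusted p = 7.41e-12). Among called genes with at least 5 CPM in the higher group and no overlap, Gm50241, a predicted gene, had the one larger fall (-3.78 ± 1.30), and its call was lost when any 1 of the 6 libraries was left out (adjusted p = 0.0592 to 0.12). Tagln, the smooth-muscle protein transgelin, had 4.53, 3.45 and 2.65 CPM in the rhCTHRC1 libraries, against 8.45, 10.2 and 10.2 CPM in the vehicle libraries, which also did not overlap. Des, the muscle intermediate filament desmin, rose by 1.03, Mylk, the kinase of the myosin light chain, by 0.69, and Myl9, a regulatory myosin light chain, by 0.42. Cnn1, calponin 1, and Myh11, the smooth-muscle myosin heavy chain, were low and did not pass the test (log2 changes 0.53 ± 0.37 and 0.64 ± 0.66, adjusted p = 0.273 and 0.478).

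Of 31 regulators of these genes 12 were lower and 8 higher, against 23.3% and 22.0% of all tested genes, around a median of -0.03. Myocd, the coactivator myocardin, had 0.203, 0.451 and 0.498 CPM in the rhCTHRC1 libraries, against 1.49, 1.53 and 1.01 CPM in the vehicle libraries. The groups did not overlap, at a low level throughout (log2 change -1.80 ± 0.34, adjusted p = 0.000194). Srf, which binds the CArG box, fell by 0.67, Klf4, a zinc-finger factor of smooth-muscle dedifferentiation, by 1.15, and Hes1, a Notch target, by 1.46 on the log2 scale. Klf2, a flow-responsive relative of Klf4, rose by 1.02. Targets shared by YAP and SRF gave 10 lower and 3 higher of 24 (5 higher with library size alone). That is a called share of 54.2%, near the 54.8% of protein-coding genes. The matricellular gene Ccn1 among them fell by 1.22. Nonmuscle actin moved little by comparison: Actb fell by 0.24. Rnd1, which encodes a small GTPase, fell by 0.80.

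The CArG box, the site bound by SRF, was searched as CCWWWWWWGG, where W is A or T. It was found in the promoter window of 4 of 20 contractile members with a window, against 1.65% of 11872 tested genes. A window runs from 250 bases before to 50 after the start site (RefSeq, GRCm38.p6), and both strands were searched. Contractile genes are known targets of SRF, so the share of the box describes the list. Acta2 was not among the 4, of which Cnn2, Myl9 and Vcl were called higher and Ldb3 was not called. Only exact matches were counted, so a site with another base in its core would be missed. The search therefore does not show that Acta2 lacks a site. Cnn2, calponin 2, an actin-binding protein, had the largest change of the 4 with a rise of 0.52 on the log2 scale, and its window is shown for that reason with the box in capitals.
Cnn2, chr10:79988350-79988649, plus strand: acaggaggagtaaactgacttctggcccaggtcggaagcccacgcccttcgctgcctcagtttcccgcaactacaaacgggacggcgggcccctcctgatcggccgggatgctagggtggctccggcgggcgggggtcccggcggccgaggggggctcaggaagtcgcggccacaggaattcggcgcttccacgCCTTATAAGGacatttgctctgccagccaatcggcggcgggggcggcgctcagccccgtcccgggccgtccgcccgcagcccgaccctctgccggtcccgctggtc

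Genes that growth factors switch on within minutes were lower in the treated cells. Of 23 immediate early factors 17 were lower and 2 higher, with a median log2 change of -0.85 (1 higher without any 1 library other than replicate 3 of the vehicle cells). Egr1, a zinc-finger factor of this class, had 27.3, 25.7 and 28.7 CPM in the rhCTHRC1 libraries, against 121, 122 and 131 CPM in the vehicle libraries. Myc, the growth regulator, had 52.1, 51.8 and 47.2 CPM in the rhCTHRC1 libraries, against 141, 148 and 134 CPM in the vehicle libraries. Neither gene's groups overlapped, and the changes were -2.19 ± 0.05 and -1.49 ± 0.05 on the log2 scale (adjusted p = 2.83e-15 and 3.71e-14). The AP-1 subunits Fosl1 and Fos fell by 2.33 and 1.93, and Junb fell by 1.25. Jun itself fell by 0.91.

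Genes that report or restrain ERK signalling split evenly, 7 higher and 7 lower of 21, against 22.0% higher and 23.3% lower of all tested genes. The phosphatase genes Dusp8 and Dusp5 fell by 1.55 and 1.26, whereas the ETS factors Etv4, Etv1 and Etv5 rose by 1.47, 1.38 and 1.01. Etv4 had 25.8, 23.2 and 26.6 CPM in the rhCTHRC1 libraries, against 8.58, 10.7 and 8.03 CPM in the vehicle libraries, with no overlap. Dusp6, the phosphatase most often read as a marker of ERK activity, did not pass the test at -0.25 ± 0.12 (adjusted p = 0.0928, or 0.0254 without replicate 2 of the vehicle cells).

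Many genes that supply and run protein synthesis fell. ATF4 is a transcription factor made when the kinases of the integrated stress response slow translation. It switches on amino acid synthesis, amino acid transport and tRNA charging, and with CHOP it drives stress genes. Of 27 targets of ATF4 and CHOP 23 were lower and 1 was higher, with a median log2 change of -0.92. Atf4 itself fell by 1.26 and Ddit3, which encodes CHOP, by 0.92. Chac1, which degrades glutathione, had 11.2, 10.4 and 9.96 CPM in the rhCTHRC1 libraries, against 48.3, 53.1 and 48.3 CPM in the vehicle libraries. Asns, asparagine synthetase, had 119, 112 and 106 CPM in the rhCTHRC1 libraries, against 363, 355 and 338 CPM in the vehicle libraries. For both genes every treated library lay below every vehicle library (log2 changes -2.25 ± 0.07 and -1.64 ± 0.04, adjusted p = 6.72e-14 and 4.55e-15). Map1lc3b, an autophagy gene, was the member that rose, by 0.36.

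A C/EBP-ATF element, searched as TGATGNAA, stood in the windows of 10 of 24 of these targets, 41.7%, against 2.93% of all tested genes with a window. All 10 were called lower, with a median of -1.25, as were 11 of the 14 without it, with a median of -0.86. The list holds genes through which this element is known, so its share describes the list. Sites of 6 members are shown, each as 30 bases on the strand that carries the element, in order of their fall, with the element in capitals. Fgf21 was at a low level in both groups. Not shown are the other members with the element, among them Jdp2, whose change of -0.85 was larger than the -0.79 of Herpud1.
Fgf21, chr7:45615611-45615640, plus strand: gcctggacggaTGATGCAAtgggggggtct
Chac1, chr2:119351038-119351067, minus strand: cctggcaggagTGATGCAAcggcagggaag
Trib3, chr2:152344028-152344057, plus strand: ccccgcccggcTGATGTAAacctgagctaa
Atf3, chr1:191183425-191183454, plus strand: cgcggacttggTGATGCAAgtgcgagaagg
Asns, chr6:7693214-7693243, minus strand: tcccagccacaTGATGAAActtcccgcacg
Herpud1, chr8:94386306-94386335, minus strand: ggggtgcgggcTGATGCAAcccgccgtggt

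Enzymes that make serine, glycine and folate-bound carbon units gave 16 lower and 3 higher of 20. The serine pathway fell at all its steps, Phgdh by 1.17, Psat1 by 1.29 and Psph by 1.49, followed by the mitochondrial enzymes Shmt2 with 1.40 and Mthfd2 with 1.87. Mthfd2 had 47.8, 49.02 and 44.6 CPM in the rhCTHRC1 libraries, against 181, 164 and 171 CPM in the vehicle libraries. Cbs, which uses serine to make cystathionine, went the other way and rose by 1.83. Amino acid transporters gave 11 lower and 4 higher of 21 (7 higher in a fit of the 6 Rosa26-KO libraries alone). Slc7a5 and Slc3a2, the chains of the large neutral amino acid exchanger, fell by 1.51 and 1.25, and Slc7a1, which carries arginine, by 1.27.

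Cytosolic tRNA synthetases, which load amino acids onto tRNAs, fell in 19 of 20 cases, around a median of -0.96. Tars, for threonine, had 171, 161 and 152 CPM in the rhCTHRC1 libraries, against 392, 378 and 373 CPM in the vehicle libraries, and the groups did not overlap. Yars and Iars, for tyrosine and isoleucine, fell by 1.28 and 1.22, Cars, for cysteine, fell by 1.14, Gars, for glycine, fell by 1.14, and Qars, for glutamine, rose by 0.14.

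Ribosome biogenesis was lower at every member tested, 36 of 36, around a median of -0.88. These genes transcribe, cut and modify ribosomal RNA in the nucleolus. Rrs1, a ribosome assembly factor, had 26.8, 26.4 and 24.1 CPM in the rhCTHRC1 libraries, against 64.8, 65.9 and 69.4 CPM in the vehicle libraries. Ncl, nucleolin, had 621, 613 and 609.8 CPM in the rhCTHRC1 libraries, against 1089, 1088 and 1099.5 CPM in the vehicle libraries. Both sets were apart, by -1.37 ± 0.07 and -0.83 ± 0.04 on the log2 scale (adjusted p = 1.13e-11 and 1.04e-11). Rrp12 fell by 1.49 and Rrp9 fell by 1.23. Nolc1 fell by 1.13, the helicase Ddx21 fell by 1.13, and Polr1b, a subunit of RNA polymerase I, fell by 1.02. Fbl, the methyltransferase fibrillarin, fell by 0.93 and Npm1, nucleophosmin, by 0.34.

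The ribosomal protein genes themselves moved little, with 10 higher and 17 lower of 50 and a median of -0.03. Scaled by library size alone their counts turned to 19 higher and 6 lower, and with limma on FPKM to 19 and 7. Without replicate 3 of the vehicle cells 5 were higher, and without replicate 2 of the treated cells 6. Rps2 had the largest fall in CPM of these genes and was lower by 0.54 on the log2 scale, and its sequence has many processed copies in the genome. Translation factors gave 23 lower and 5 higher of 30. Eif5a, which carries hypusine, fell by 1.32, the helicase Eif4a1 by 0.79 and the cap-binding protein Eif4e by 0.68. The elongation factors differed from these: Eef2 had 4517 ± 52.6 CPM with rhCTHRC1 and 3684 ± 49.8 CPM with vehicle (SD, n = 3 each), a rise of 0.29 on the log2 scale.

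Genes of nucleotide synthesis and the pentose phosphate pathway followed the same direction, 18 lower and 3 higher of 24. Nme1, a nucleoside diphosphate kinase, fell by 1.29, Ctps, CTP synthase, by 0.79, Atic, of purine synthesis, by 0.78, and Cad, which starts pyrimidine synthesis, by 0.60. Tkt, of the pentose phosphate pathway, rose by 0.26.

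Folding and degradation of proteins were lower as well. A list of 36 genes held chaperones of the endoplasmic reticulum and targets of the factors XBP1 and ATF6. Of these, 25 were lower and 3 higher (5 higher with library size alone or with limma on FPKM), around a median of -0.30. Calr, the calcium-binding lectin calreticulin, had 668, 674 and 636 CPM in the rhCTHRC1 libraries, against 1221, 1293 and 1309 CPM in the vehicle libraries. Hspa5, the main chaperone of this compartment, fell by 0.85, Hsp90b1 by 0.69 and Xbp1, a transcription factor of the unfolded protein response, by 0.63. Crebrf, a regulator of that response, rose by 1.18. All 29 constitutive proteasome genes were lower, around a median of -0.41, Psmb3 by 0.72 and Psmd14, a deubiquitinase of the lid, by 0.63. Heat shock proteins and chaperonins gave 15 lower and 4 higher of 27 (7 higher with library size alone or with limma on FPKM), among them the mitochondrial chaperones Hspd1 and Hspa9, which fell by 1.09 and 1.01. Hspb1, a small heat shock protein, rose by 0.62.

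The ER stress element, searched as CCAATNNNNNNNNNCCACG, was in the windows of 9 of 29 members, 31.0%, and in 19 of 11872 tested genes with a window, 0.16%. This motif was chosen after the values were seen, and the list includes known targets of the unfolded protein response, so its share describes the list. Of the 9, 7 were called lower with a median over the 9 of -0.69, and of the 20 members without it 12 were lower and 3 higher with a median of -0.25. The sites of 4 abundant chaperones are shown with the element in capitals, because they are the best known folding factors among the 9. Hsp90b1 holds a second match, not shown.
Calr, chr8:84847070-84847099, plus strand: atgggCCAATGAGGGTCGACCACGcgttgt
Hspa5, chr2:34772020-34772049, plus strand: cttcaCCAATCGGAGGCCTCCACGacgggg
Pdia6, chr12:17266486-17266515, plus strand: agagaCCAATGAAAGGCGGCCACGgcgtgg
Hsp90b1, chr10:86705528-86705557, plus strand: actcaCCAATCGTGCCTCACCACGcactct

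**Figure D2:**
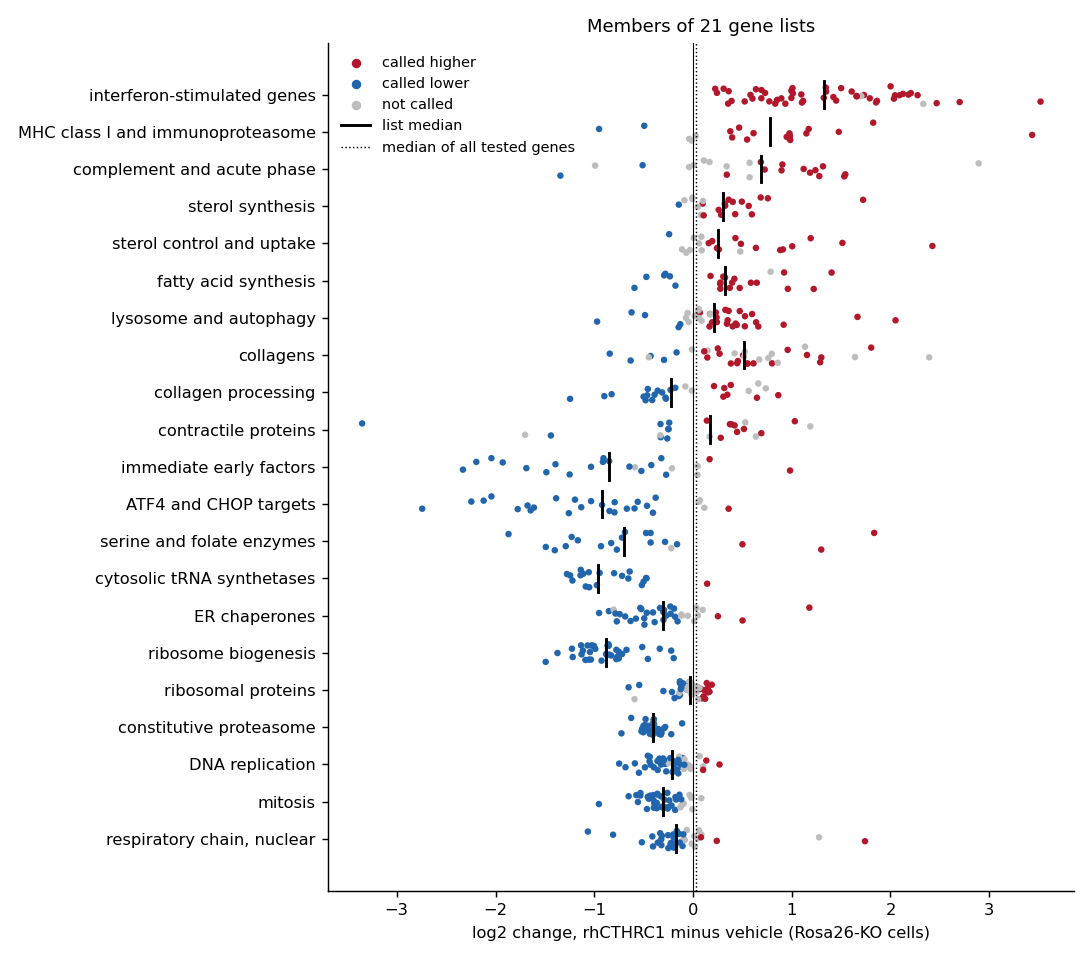
Log2 change (rhCTHRC1 minus vehicle, Rosa26-KO cells) of each tested member of 21 gene lists, with members called higher in red, called lower in blue and not called in grey, list medians as black bars and the median of all tested genes as a dotted line. Ribosome biogenesis and the constitutive proteasome lie wholly below 0, interferon-stimulated genes wholly above 0, and contractile proteins on both sides.

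Genes of energy metabolism fell more often than they rose, by smaller amounts. Glycolytic genes gave 12 lower and 6 higher of 24, a called share of 75.0%. This split is near that of all genes above 100 CPM, of which 74.6% were called, 50.3% lower and 24.3% higher. Ldha, which makes lactate, had 341, 330.3 and 333 CPM in the rhCTHRC1 libraries, against 814, 797 and 749 CPM in the vehicle libraries, without overlap (log2 change -1.23 ± 0.05, adjusted p = 3.03e-11). Pgk1, Pgam1 and Eno1, which follow one another in the pathway, fell by 0.93, 0.87 and 0.74. Gpi1, an early step, was at 0.05 ± 0.03 and did not pass (adjusted p = 0.158). It passed with library size alone (adjusted p = 0.000946) and with limma on FPKM (0.00322). Nuclear genes of the respiratory chain gave 25 lower and 3 higher of 39 (5 higher with library size alone or with limma on FPKM) around a median of -0.18, and Cycs, cytochrome c, fell by 1.06. Of the genes that mitochondria encode, 6 were higher and 1 lower of 15 (3 lower without replicate 3 of the treated cells), a called share of 46.7%, near the 45.2% of all tested genes. Enzymes of the TCA cycle and genes of mitochondrial biogenesis gave 23 lower and 4 higher of 32. Hypoxia targets split into 12 lower and 7 higher of 22, with Hif1a itself lower by 0.61 and Epas1, which encodes its relative HIF-2 alpha, higher by 1.08.

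Proliferation genes fell together and by modest amounts. Mitotic genes gave 34 lower and 0 higher of 42 around a median of -0.30, and genes of DNA replication 33 lower and 3 higher of 48 around a median of -0.21. Mybl2, a factor of the dividing cell, fell by 0.95, the replication factor Mcm10 by 0.75 and the proliferation marker Mki67 by 0.32. Mki67 had 455, 471 and 473 CPM in the rhCTHRC1 libraries, against 572, 562 and 612 CPM in the vehicle libraries, without overlap. Inhibitors of the cycle moved in opposite directions. Cdkn1b, Cdkn1c and Cdkn2b rose by 0.33, 0.78 and 0.62, Ccng2, a cyclin of resting cells, by 1.11, and Cdkn1a, a target of p53, fell by 1.08. The D-type cyclin Ccnd2 fell by 0.79.

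Defence genes induced by interferon rose almost without exception. Interferon signals through a complex that holds STAT2 and IRF9 and binds the interferon-stimulated response element (ISRE), and many of the induced genes sense or block viral nucleic acid. Of 51 interferon-stimulated genes 49 were higher and 0 lower, against 22.0% higher of all tested genes, with a median log2 change of 1.32. Irf7, a factor that amplifies interferon production, had 19.4, 21.5 and 20.2 CPM in the rhCTHRC1 libraries, against 4.99, 5.45 and 4.37 CPM in the vehicle libraries. Stat2 had 99.2, 102 and 102 CPM in the rhCTHRC1 libraries, against 35.8, 35.7 and 35.6 CPM in the vehicle libraries. In both, all treated libraries were above all vehicle libraries (log2 change 2.05 ± 0.18, adjusted p = 8.54e-08, and log2 change 1.50 ± 0.05, adjusted p = 1.12e-13). Irf9 rose by 1.01.

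The ubiquitin-like modifier Isg15 rose by 1.32, the RNA-binding protein Ifit1 by 2.09 and the antiviral enzyme Rsad2, viperin, by 1.86. The RNA sensors Ddx58 and Ifih1, which encode RIG-I and MDA5, rose by 0.85 and 0.94, and their regulator Dhx58 by 2.03. Sensors and adaptors as a whole gave 15 higher and 2 lower of 28 (1 lower in 4 of the 6 fits that left out a library). The DNA-sensing adaptor Tmem173 (STING) did not pass at 0.20 ± 0.09 (adjusted p = 0.0757). It passed with library size alone, limma on FPKM, the 6 Rosa26-KO libraries alone or all 24 libraries (adjusted p = 0.0173 to 0.0492). Receptors and kinases moved less than the targets. Ifnar1 and Ifnar2, the chains of the type I receptor, rose by 0.19 and 0.30, Tyk2 by 0.74, and Jak1 was at 0.04 ± 0.03 (adjusted p = 0.3). Jak1 passed with library size alone (adjusted p = 0.00297) and with limma on FPKM (0.00535).

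The ISRE, searched as GAAANNGAAA, was present in the windows of 19 of 38 interferon-stimulated genes with a window, against 3.77% of tested genes. The list was drawn from genes known to respond to interferon, so its share describes the list. Of all genes called higher that had a window, 4.8% held a match. Of the 19 with a match 18 were called higher, with a median of 1.35, and of the 19 without one all were called higher, with a median of 0.996. The sites of 7 members are given below as 30 bases on the strand that carries the match in capitals, with rises between 2.47 for Ifit3b and 0.85 for Ddx58, to show the match in genes of different function. Isg15 holds 3 overlapping matches within the bases shown, of which 1 is in capitals. Ifit1, Ifit3 and Ifit3b hold 2 matches each, of which 1 is shown. A further 4 called members with a match rose less than Ddx58 and are not shown. Ifit3, which rose by 2.21, and Ifit3b are close copies, and the 30 bases shown are the same letters in both, so their counts may share reads.
Ifit3b, chr19:34607759-34607788, minus strand: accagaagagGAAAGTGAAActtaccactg
Ifit3, chr19:34583363-34583392, minus strand: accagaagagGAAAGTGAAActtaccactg
Ifit1, chr19:34640794-34640823, minus strand: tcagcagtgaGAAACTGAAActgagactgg
Rsad2, chr12:26456553-26456582, plus strand: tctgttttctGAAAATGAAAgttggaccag
Stat2, chr10:128270266-128270295, minus strand: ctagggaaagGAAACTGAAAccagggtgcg
Isg15, chr4:156200871-156200900, minus strand: gtaggaaaagGAAACCGAAAcagaaaatag
Ddx58, chr4:40239804-40239833, plus strand: ctggccatagGAAATCGAAActgcctcagg

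Antigen presentation rose with them. MHC class I genes and their processing partners gave 15 higher and 2 lower of 20, and the fall of Calr is 1 of the 2. H2-K1, a class I heavy chain, had 168, 180.1 and 168 CPM in the rhCTHRC1 libraries, against 75.3, 80.4 and 73.6 CPM in the vehicle libraries. The peptide transporters Tap1 and Tap2 rose by 0.97 and 1.15, Tapbp, which loads peptide, by 0.99, and B2m, the light chain, by 0.38. Class I heavy chain genes are close copies of one another, and reads may be split among them. Psmb9 and Psmb10, subunits of the immunoproteasome, rose by 1.83 and 0.47, in contrast to the constitutive subunits above.

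Complement genes were also higher. Of 23 genes of complement and the acute phase 12 were higher and 2 lower, around a median of 0.69. C3, the central component, had 1549, 1612 and 1514 CPM in the rhCTHRC1 libraries, against 715, 727 and 707 CPM in the vehicle libraries, with no overlap (log2 change 1.12 ± 0.10, adjusted p = 8.93e-06). C1s1 and C1ra, proteases of the classical pathway, rose by 1.32 and 0.90, and C4b by 1.19. Lbp, which binds bacterial lipopolysaccharide, rose by 0.91, while Ptx3, a pentraxin, and Lcn2, a siderophore-binding protein, fell by 1.34 and 0.51.

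Chemokines and cytokines split, 10 higher and 6 lower of 24, a called share of 66.7% against 45.2% of all tested genes. Ccl5, Cxcl5 and Cxcl10 rose by 1.83, 1.33 and 0.98, and Cxcl12 and Csf1 fell by 0.26 and 0.36. Cxcl5, which attracts neutrophils, had 52.6, 55.3 and 61.6 CPM in the rhCTHRC1 libraries, against 22.6, 20.7 and 23.8 CPM in the vehicle libraries. In the NF-kB pathway the subunits Rela and Nfkb1 did not pass (log2 changes -0.03 ± 0.04 and 0.04 ± 0.04, adjusted p = 0.555 and 0.389), and the adhesion molecule Vcam1 rose by 0.73. Nfkb1 passed with library size alone (adjusted p = 0.0113) and with limma on FPKM (0.0307).

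Lipid genes rose on several branches. A pair of transcription factor families governs most of them: SREBPs switch on sterol and fatty acid synthesis when sterol is low, and liver X receptors switch on cholesterol export and SREBP-1c when sterol is high. Sterol synthesis gave 15 higher and 1 lower of 22, around a median of 0.30, and sterol control and uptake 13 and 1 of 22. Within synthesis the size differed from step to step: Mvd rose by 0.76, Lss by 0.60 and Hmgcs1 by 0.43, and Idi1 was at -0.01 ± 0.06 and did not pass (adjusted p = 0.932).

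Genes regulated by liver X receptors had the largest rises in sterol control. Abca1, which exports cholesterol, had 116, 121 and 125 CPM in the rhCTHRC1 libraries, against 23.02, 24.6 and 19.7 CPM in the vehicle libraries. Its groups did not overlap (log2 change 2.42 ± 0.09, adjusted p = 1.39e-13). Mylip, a ubiquitin ligase, rose by 1.51. Srebf1 rose by 0.88 and Srebf2 by 0.16. Insig1, which retains SREBPs in the endoplasmic reticulum, had 908, 891 and 836 CPM in the rhCTHRC1 libraries, against 388, 385 and 379.9 CPM in the vehicle libraries.

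Fatty acid genes gave 16 higher and 6 lower of 23. Scd1 and Scd2, the desaturases that make monounsaturated fat, rose by 0.92 and 0.65, Acss2, which makes acetyl-CoA from acetate, by 1.22, and Lpin1, a phosphatidate phosphatase, by 1.40. Scd2 gained more CPM than any other gene and had 3521, 3252 and 3215 CPM in the rhCTHRC1 libraries, against 2189, 2152 and 2040.3 CPM in the vehicle libraries. Fasn, fatty acid synthase, rose by 0.42. Angptl4, a secreted inhibitor of lipoprotein lipase, fell by 2.35 and Cpt1a, which admits fatty acids to mitochondria, by 0.28.

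A sterol element, searched as TCACNCCAC, was found in 1 of 33 sterol genes with a window, 3.03%, and in 1.41% of tested genes. The match was in Hmgcs1, the synthase that precedes HMG-CoA reductase, whose window is shown with the match in capitals.
Hmgcs1, chr13:119690101-119690400, plus strand: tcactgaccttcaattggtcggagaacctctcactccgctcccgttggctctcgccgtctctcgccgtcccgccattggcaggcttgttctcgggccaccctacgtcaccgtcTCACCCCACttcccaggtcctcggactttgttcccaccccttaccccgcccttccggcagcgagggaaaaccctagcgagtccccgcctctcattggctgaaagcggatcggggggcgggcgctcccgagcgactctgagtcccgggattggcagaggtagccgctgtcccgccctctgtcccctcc

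Lysosomal and autophagy genes gave 23 higher and 5 lower of 38 (3 lower with library size alone or with limma on FPKM), and 2 of the 28 called changed by at least 1 log2 unit. Gpnmb, a glycoprotein of lysosome-rich cells, had 140.0, 147 and 138 CPM in the rhCTHRC1 libraries, against 44.7, 45.3 and 43.99 CPM in the vehicle libraries. The hydrolase genes Gaa and Ctsd rose by 0.60 and 0.40, Grn, progranulin, by 0.53 and the autophagy kinase Ulk1 by 0.35. Tfeb, a regulator of this group, was at 0.05 ± 0.07 (adjusted p = 0.583), and Mitf, its relative, fell by 0.97.

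Of all called genes with at least 5 CPM in the higher group and no overlap, the largest rises were in Ptgds, a lipocalin that makes prostaglandin D2, and Ces1d, a carboxylesterase. Ptgds had 16.5, 13.5 and 13.7 CPM in the rhCTHRC1 libraries, against 0.613, 0.504 and 0.815 CPM in the vehicle libraries. Ces1d had 17.2, 22.05 and 18.99 CPM in the rhCTHRC1 libraries, against 0.878, 0.764 and 1.24 CPM in the vehicle libraries, and it has close copies whose reads it may share. Both were low in every vehicle library (log2 changes 4.49 ± 0.56 and 4.34 ± 0.24). Next came Spib, an ETS factor, with 3.18, and Itga10, an integrin chain for collagen, with 3.002. Besides genes already given, the largest falls were in Sprr1a, a small proline-rich protein, with 2.36, and Diras2, a small GTPase, with 2.31.

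**Figure D3:**
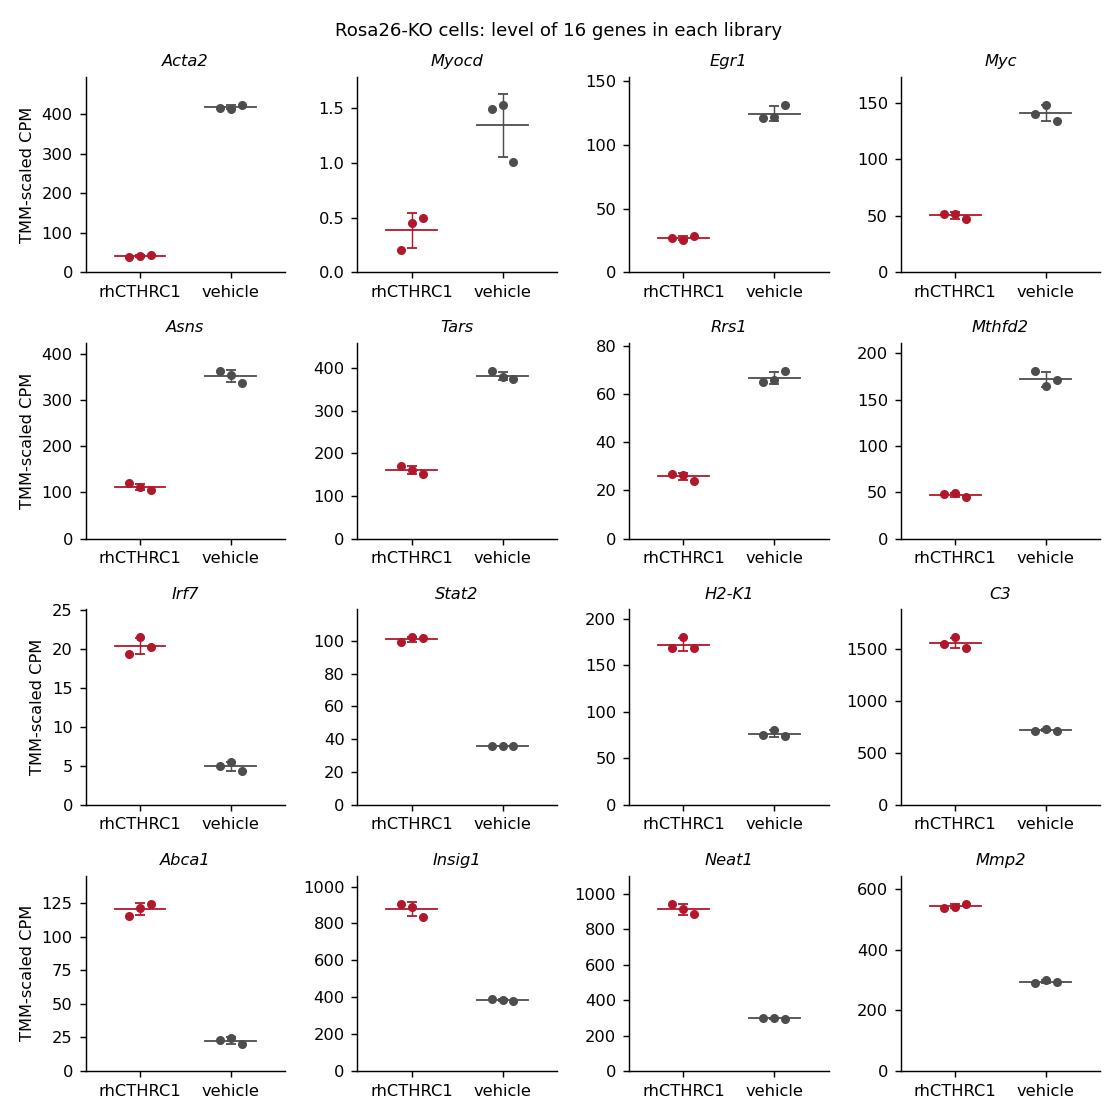
Level of 16 genes (TMM-scaled CPM, linear axes from 0) in each Rosa26-KO library, rhCTHRC1 on the left in red and vehicle on the right in grey, with points for the 3 libraries, bars for the mean and whiskers for the SD. In all 16 genes the groups do not overlap: the 8 genes of the upper rows (Acta2 to Mthfd2) are lower with rhCTHRC1, and the 8 of the lower rows (Irf7 to Mmp2) are higher.

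Matrix genes moved in both directions. Collagen genes rose more often than they fell, but their summed level was lower with rhCTHRC1. It was 12608 to 12817 CPM in the rhCTHRC1 libraries and 14043 to 14231 CPM in the vehicle libraries. Genes that fold and cross-link collagen were mostly lower. Collagens gave 17 higher and 5 lower of 35, around a median of 0.52, and the 5 were Col1a1, Col1a2, Col5a1, Col5a2 and Col12a1. Col3a1, which forms mixed fibrils with type I, had 227, 210.2 and 229.9 CPM in the rhCTHRC1 libraries, against 129, 119 and 135 CPM in the vehicle libraries. Col1a1 had 4289, 4242 and 4153 CPM in the rhCTHRC1 libraries, against 5160.5, 5134 and 5247 CPM in the vehicle libraries, a small fall of 0.29 on the log2 scale without overlap, and it lost more CPM than any other gene. Col6a1, of the pericellular matrix, rose by 0.46, Col4a1, of basement membranes, by 0.45 and Col14a1, a fibril-associated collagen, by 1.80.

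Genes of collagen processing gave 15 lower and 7 higher of 27, against 50.3% lower and 24.3% higher of genes above 100 CPM. Serpinh1, the collagen chaperone, had 924, 907 and 869 CPM in the rhCTHRC1 libraries, against 1603, 1601 and 1576 CPM in the vehicle libraries. Lox, which cross-links collagen and elastin, had 736, 755 and 783 CPM in the rhCTHRC1 libraries, against 1392, 1387 and 1459 CPM in the vehicle libraries. Neither overlapped, and the changes were -0.82 ± 0.03 and -0.90 ± 0.05 (adjusted p = 1.79e-13 and 1.59e-09). P4ha1, a prolyl hydroxylase, fell by 0.41, and P3h3 rose by 0.86. Elastic fibre genes gave 7 higher and 6 lower of 18: the fibulins Fbln2 and Fbln5 fell by 0.83 and 0.75, Fbn1, fibrillin 1, by 0.41, and Ltbp3, Emilin1 and Fbln1 rose by 0.73, 0.42 and 0.50. Eln, elastin, was low at 1.47 CPM with rhCTHRC1 and 0.988 CPM with vehicle and did not pass (adjusted p = 0.177).

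Proteoglycans and matricellular genes gave 20 higher and 12 lower of 43. Spp1, osteopontin, rose by 1.11, Prelp and Ogn, small leucine-rich proteins, by 1.25 and 1.03, and Mgp, which restrains calcification, by 0.63. Has2, which makes hyaluronan, fell by 1.96 and Vcan, versican, by 0.57. Among proteases and their inhibitors Mmp2, the gelatinase, had 538, 540.0 and 552 CPM in the rhCTHRC1 libraries, against 289.6, 299 and 293 CPM in the vehicle libraries. Its inhibitors Timp1 and Timp3 fell by 0.92 and 0.82. The ADAMTS proteases differed: Adamts1, which cleaves versican, had 56.7, 57.01 and 48.6 CPM in the rhCTHRC1 libraries, against 177, 176 and 167 CPM in the vehicle libraries, while Adamts7 had 37.7, 35.6 and 35.9 CPM in the rhCTHRC1 libraries, against 9.84, 10.6 and 10.8 CPM in the vehicle libraries.

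**Figure D4:**
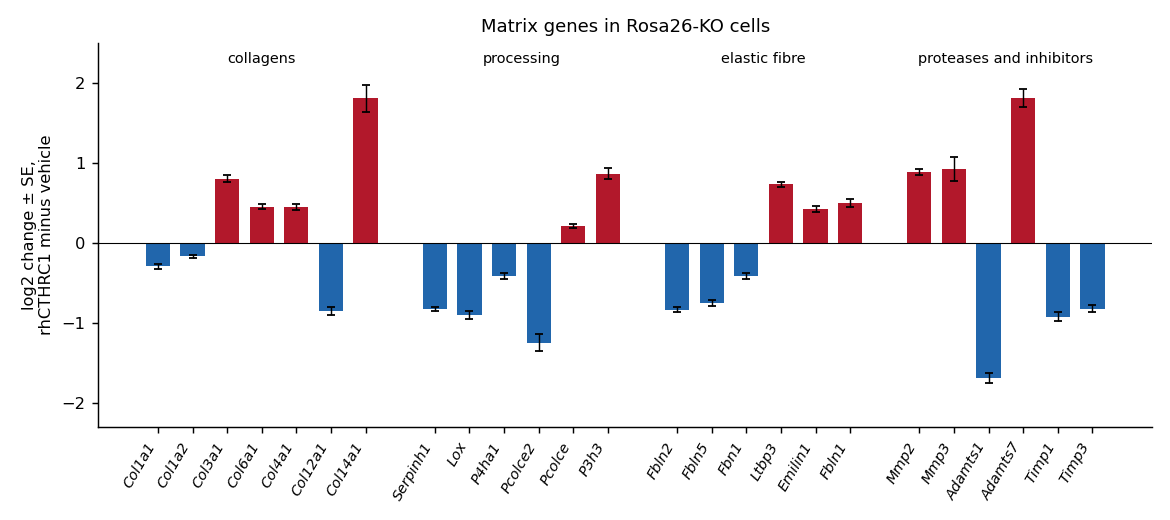
Log2 change ± SE (rhCTHRC1 minus vehicle, Rosa26-KO cells) of 25 matrix genes in 4 groups, red where higher and blue where lower. Serpinh1 and Lox lie at -0.82 and -0.90, and Mmp2 and Col3a1 at 0.89 and 0.80.

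Receptors, ligands and their targets changed in patterns of their own. In the TGF-beta and BMP pathway 10 were higher and 15 lower of 39 (12 and 11 with limma on FPKM). That is a called share of 64.1%, against 45.2% of all tested genes and 54.8% of protein-coding genes. Id1, Id2 and Id3, direct targets of BMP signalling, fell by 1.19, 1.54 and 0.56, and Smad7, the feedback inhibitor, by 0.73, while the signal carrier Smad3 and the ligand Tgfb1 rose by 0.88 and 0.64. Id2 had 56.3, 53.8 and 43.6 CPM in the rhCTHRC1 libraries, against 152, 149 and 146 CPM in the vehicle libraries. Wnt ligands, receptors and planar polarity genes gave 15 higher and 6 lower of 36, against 22.0% and 23.3% of all tested genes. The called share of the list was 58.3%, against 45.2% of all tested genes and near the 54.8% of protein-coding genes. Wnt5b, Wnt10b and Wnt6 rose by 1.71, 1.23 and 1.17, and Ptk7, a receptor of planar polarity, by 0.69. Axin2, a common readout of beta-catenin, was at 0.32 ± 0.24 (adjusted p = 0.313), and Wnt5a at -0.04 ± 0.23 (adjusted p = 0.902).

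The growth factor receptors Pdgfra, Pdgfrb, Fgfr1 and Egfr rose, by 0.66, 0.58, 0.43 and 0.72, and the EGFR ligands Hbegf and Ereg fell by 0.83 and 0.77. Pdgfrb had 428, 398 and 403 CPM in the rhCTHRC1 libraries, against 283, 269.5 and 272 CPM in the vehicle libraries. Notch3, the Notch receptor of smooth muscle, rose by 1.44, in contrast to the fall of Hes1 above. Angpt2, an angiogenic ligand, rose by 1.38. Of the IGF system, Igfbp5 fell by 1.92. Genes of retinoid and steroid metabolism gave 13 higher and 3 lower of 23. The receptor Rarb, the catabolic enzyme Cyp26b1 and the reductase Dhrs3, all induced by retinoic acid, rose by 1.92, 1.92 and 1.28. Aldh1a1, which makes retinoic acid, fell by 1.20.

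Clock genes split into 8 higher and 8 lower of 20, or 5 lower when scaled by library size alone or with limma on FPKM. Per1, Nfil3 and Ciart fell by 1.14, 1.20 and 1.44, and Per3 and Dbp rose by 1.20 and 1.15. With no time given, a shift in phase and a change in level cannot be told apart. Guidance genes gave 16 higher and 7 lower of 35 (4 lower with limma on FPKM), a called share of 65.7% against 45.2% of all tested genes. The semaphorins Sema5a, Sema3b and Sema3e were higher by 1.31, 1.33 and 1.04. Genes that control mineral, Ank and Enpp1, which supply extracellular pyrophosphate, rose by 1.41 and 1.53. Ank had 416, 373 and 421 CPM in the rhCTHRC1 libraries, against 157, 143 and 154 CPM in the vehicle libraries.

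Noncoding RNAs were not uniform. Neat1, the scaffold of nuclear paraspeckles, had 946, 913 and 884 CPM in the rhCTHRC1 libraries, against 301, 297 and 293 CPM in the vehicle libraries. No treated library overlapped a vehicle library (log2 change 1.62 ± 0.08, adjusted p = 1.06e-07). Malat1, its neighbour on chromosome 19, was at 0.33 ± 0.13 (adjusted p = 0.0746, or 0.00479 without replicate 3 of the treated cells). Mir17hg, the host of a microRNA cluster induced by MYC, fell by 1.27, and Snhg1, a snoRNA host, by 0.85.

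The same addition of rhCTHRC1 to Adam9-KO cells called 0 genes (edgeR; 1387 had an unadjusted p under 0.05, and DESeq2 called 37). The responses of the 2 edited cells differed in 37.9% of tested genes (7050 of 18594, 3307 with a more positive response in Rosa26-KO cells and 3743 with a more negative one). Without replicate 3 of the treated Adam9-KO cells the number was 6516. That library lay apart from the others of its group on the first principal component (5.58, against 14.1 and 15.2). It lay further apart on the second (32.36, against 14.57 and 12.35). Insig1 differed by 1.17 ± 0.04 and Abca1 by 2.65 ± 0.12 on the log2 scale, and Bcat1, a branched-chain aminotransferase, by -1.79 ± 0.05 (adjusted p = 1.83e-12, 1.73e-11 and 1.03e-13). Their changes in Adam9-KO cells were 0.02, -0.23 and 0.07. By list, the difference passed in all 36 tested genes of ribosome biogenesis, 19 of 20 tRNA synthetases and 22 of 27 ATF4 and CHOP targets with a negative sign, against 20.1% of all tested genes, and in 46 of 51 interferon-stimulated genes with a positive sign, against 17.8%. Acta2 changed by -0.15 in Adam9-KO cells, a difference of -3.20 ± 0.10 (adjusted p = 3.82e-10).

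ADAM9i cells carry the label WT, but in a principal component analysis of all 24 libraries their vehicle libraries lay at -3.74 to 1.87 on the first component and 31.5 to 35.7 on the second, beside the vehicle libraries of Rosa26-KO cells (0.32 to 0.72 and 28.6 to 30.9) and far from those of WT cells (-119.3 to -114.5 and -37.4 to -35.5). In the cells labelled ADAM9i rhCTHRC1 called 3.79% of tested genes, 754 of 19891, with 489 higher (2.46%) and 265 lower (1.33%), in a fit of all 24 libraries. In this fit 8415 genes (42.3%) were called in Rosa26-KO cells, and 594 genes were on both lists, 7.06% of the Rosa26-KO calls and 78.8% of the ADAM9i calls. Of these 594, 117 had the same sign. The responses of Rosa26-KO and ADAM9i cells differed in 35.4% of tested genes (7049, of which 3257 were more positive in Rosa26-KO cells). Ribosome biogenesis had a median of 0.17 in ADAM9i cells with 13 called higher, and interferon-stimulated genes a median of -0.23 with 6 called lower. For Insig1 the change was -0.05, a difference of 1.24 ± 0.05, and for Tars 0.19, a difference of -1.44 ± 0.05 (adjusted p = 2.53e-17 and 1.56e-18).

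WT cells are given side by side only, since their 3 vehicle libraries stood far from all others on the first principal component (-119.3 to -114.5, against -7.16 to 54.3), and no difference from them was tested. Of the 8415 genes called in Rosa26-KO cells 7189 were called in WT cells, 85.4% of the Rosa26-KO calls and 59.6% of the WT calls, where 60.6% of tested genes were called, and 6300 of these had the same sign. List medians ran the same way for interferon-stimulated genes (1.32 in Rosa26-KO and 1.43 in WT cells), ATF4 and CHOP targets (-0.92 and -1.33), tRNA synthetases (-0.96 and -0.99) and ribosome biogenesis (-0.88 and -2.17). They ran apart for immediate early factors (-0.85 and 0.72), mitotic genes (-0.30 and 0.51) and collagen processing (-0.23 and 0.34). Acta2 changed by -2.27 in WT cells, Abca1 by 2.33 and Neat1 by 1.45.

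**Figure D5:**
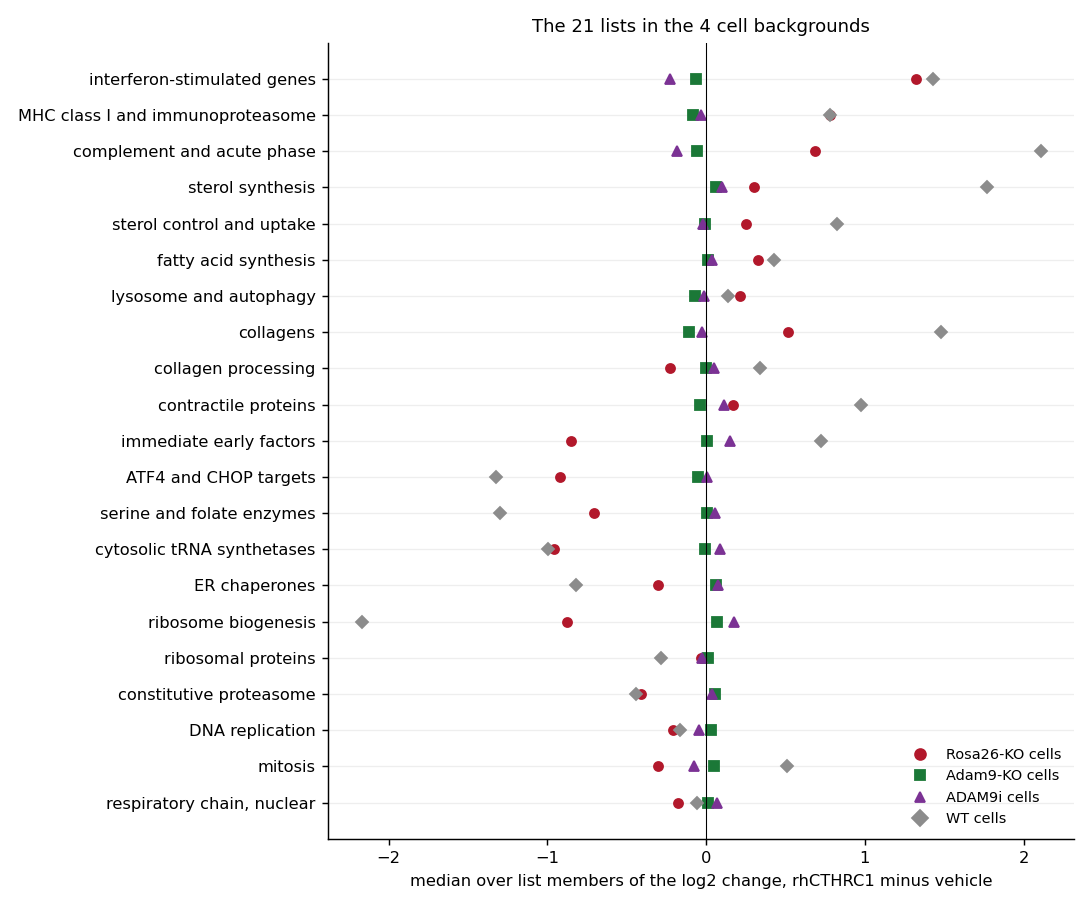
Median over list members of the log2 change (rhCTHRC1 minus vehicle) for 21 lists in Rosa26-KO (red circles), Adam9-KO (green squares), ADAM9i (purple triangles) and WT cells (grey diamonds), from 1 fit of all 24 libraries. Adam9-KO medians run from -0.11 to 0.07 and ADAM9i medians from -0.23 to 0.17, while Rosa26-KO medians run from -0.96 to 1.32.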

How the data were processed

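RNA was measured in 24 libraries, per the labels made with a stranded total RNA kit and read as paired ends of 150 bases. The authors deposited raw counts and FPKM (fragments per kilobase of transcript, scaled to the mapped reads of each library) for 33034 genes. Per the submitters' processing notes they used HISAT2, StringTie, DESeq2 and the build GRCm38, and versions, the gene annotation and the use of strand in counting were not given in the sources used here. Symbols, coordinates and gene types are those of the deposited table and of GENCODE vM21, and promoter windows come from RefSeq (GRCm38.p6).

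The deposited counts were tested with edgeR 4.0.16 in R 4.3.3 (quasi-likelihood test, two-sided, TMM scaling, default filter on low counts, Benjamini-Hochberg adjustment over all genes tested, threshold 0.05). The 12 libraries of Rosa26-KO and Adam9-KO cells, 3 per group, were fitted together, which left 8 residual degrees of freedom, and the contrast with ADAM9i cells came from a fit of all 24 libraries. No comparison here rests on 1 library per group. Alternatives were RLE size factors, library size alone, no filter, the replicate number as a block, limma 3.58.1 on log2(FPKM + 1) for genes with at least 1 FPKM in 3 libraries, DESeq2 1.42.0, other sets of libraries, a 2-fold threshold, and leaving out each library.

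The 70 gene lists, which hold 1653 tested genes, and all members were chosen with earlier results of these data known, so their counts are descriptions. Named genes are the largest changes in log2 and in CPM, the largest called members and preset anchors of each list, the strongest differences between responses, Gt(ROSA)26Sor, Thumpd3, Adam9 and Cthrc1, and genes whose promoter is printed. Sites of 30 bases were searched with both strands. All replicate pairs of the Rosa26-KO groups differed by more than sampling noise, and same-numbered libraries showed no pairing in their counts.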

Additional observations from a re-analysis of the deposited data

Results flagged for a closer look

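The results below stand out because the response of Rosa26-KO cells differed from that of other cells by a test of the difference itself. Against Adam9-KO cells 7050 genes differed and against ADAM9i cells 7049. In the comparison with Adam9-KO cells, among genes with the smallest p, the log2 difference (Rosa26-KO minus Adam9-KO) was positive for Insig1 (1.17), Ank (1.59), Abca1 (2.65), Scd1 (0.94), the lipid transporter gene Abca7 (1.22) and Rsrp1 (1.004), which encodes an arginine- and serine-rich protein. It was negative for Bcat1 (-1.79), Psat1 (-1.33), Asns (-1.65), Egr1 (-2.02), Mthfd2 (-1.87) and Ifrd1 (-1.55), a gene induced by stress and growth factors.

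In the comparison with ADAM9i cells the positive differences (Rosa26-KO minus ADAM9i) were those of Insig1 (1.24), Ank (1.32), Rsrp1 (0.98), Scd1 (0.94), Abca7 (1.25) and Mmp2 (1.01). The negative ones were those of Bcat1 (-1.98), Mthfd2 (-1.98), Tars (-1.44), Psat1 (-1.30), Asns (-1.58) and Ifrd1 (-1.82). Both comparisons use the same 6 Rosa26-KO libraries, so their overlap is not independent. All 24 differences kept their sign and passed the test at adjusted p under 0.05 under every other scaling, filter, model and set of libraries run. The 2-fold threshold was applied to counts of genes and not to these genes, and Scd1 in both comparisons and Rsrp1 in the second lie under it. Groups of 3 libraries are too small for a test of single outlying samples.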

How the results depend on the processing

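The number of genes called in Rosa26-KO cells lay between 8012 (no filter on low counts) and 8682 (the 6 Rosa26-KO libraries alone) under the other count models and 7674 with limma on FPKM, against 8413, and between 7555 and 7754 when 1 library was left out. Of the 8570 genes called with library size alone 7573 were among the 8413, and 59.3% of the 8570 were higher, against 48.6%. With limma on FPKM 54.9% were higher. A threshold of 2-fold left 1205 genes for the response, 1249 for the difference from Adam9-KO cells and 1322 for the difference from ADAM9i cells. Those differences lay between 6496 and 7232 and between 6660 and 7214 otherwise, and between 6367 and 6898 and between 6580 and 6782 with 1 library left out. The replicate block gave 8446, 7084 and 7000 calls. Same-numbered Rosa26-KO libraries correlated at -0.014, -0.003 and 0.01 in their deviations from the group means. These values cannot show whether such libraries shared a culture or a day, which the labels do not say. In Adam9-KO cells DESeq2 called 37 genes, 13 higher and 24 lower, and edgeR 0 to 3 with 1 library left out, alternatives added after the data were seen. Of the 255 genes named, 7 that missed the threshold passed it under at least 1 alternative, Gm50241 and Thumpd3 lost their calls under at least 1, and none that was called changed sign. Among counts of called list members, 1860 stayed within 1.5 times the reported count and 100 did not. Depth limits what can be said of genes near the floor of 3 counts, and 3 libraries per group of unknown origin limit all p-values to the spread among them. Dose, time, clone and the kind of vehicle bear on every value and were not tested.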

Other observations

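Gene groups outside the main account moved in both directions. Targets of p53 fell more often than they rose, 15 lower and 6 higher of 27, among them the secreted stress factor Gdf15, which fell by 1.61, Sesn2, an inhibitor of growth signalling, which fell by 1.39, and Aen, a nuclease, which fell by 1.14, while Trp53inp1 rose by 0.83. Gdf15 and Sesn2 are also targets of ATF4. Targets of NRF2, the factor of the oxidative stress response, split into 9 higher and 10 lower of 26, or 11 and 8 with library size alone. The glutathione transferases Gsta4 and Gstm1 rose by 1.40 and 1.28, Aox1, aldehyde oxidase, by 1.53 and the quinone reductase Nqo1 by 0.79. The cystine transporter Slc7a11 fell by 1.31 and Hmox1, heme oxygenase, by 1.03. Outside any list Aldh3a1, an aldehyde dehydrogenase, had 79.2, 81.2 and 83.7 CPM in the rhCTHRC1 libraries, against 16.2, 15.4 and 14.9 CPM in the vehicle libraries, with no overlap, and Dock10, an activator of small GTPases, rose by 2.44.

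Of 14 ADAM proteases and their carriers 6 rose and 2 fell. This is a called share of 57.1%, against 45.2% of all tested genes and near the 54.8% of protein-coding genes. Adam10 and Adam17, the main sheddases, were at -0.03 ± 0.04 and 0.00 ± 0.04 and did not pass (adjusted p = 0.553 and 0.976), Adam12 fell by 0.76, and Rhbdf1 and Rhbdf2, which carry ADAM17 to the cell surface, rose by 0.54 and 0.53. Regulators of actin and the cytoskeleton gave 17 lower and 5 higher of 31 (8 higher with library size alone, and 3 without any 1 library other than replicate 2 of the vehicle cells), and Cfl1, cofilin, fell by 0.59. Glucocorticoid targets gave 9 lower and 5 higher of 19, and the kinase gene Sgk1 fell by 1.16. The higher count of 5 was 3 without replicate 1 or 3 of the vehicle cells or replicate 3 of the treated cells, and 2 without replicate 1 of the treated cells. Natriuretic peptide receptors moved apart: Npr1, which makes cyclic GMP, rose by 1.38, and Npr3, which clears the peptides, fell by 1.15. Of 13 fibroblast genes 7 were higher, 1 was lower and 5 did not pass, and Lum, Pi16 and Cd34 stayed under 1 CPM in all 6 libraries. Fap, a protease of activated fibroblasts, had 2.57, 2.55 and 2.52 CPM in the rhCTHRC1 libraries, against 0.696, 0.325 and 0.538 CPM in the vehicle libraries, and Dpt, dermatopontin, which was under 1 CPM with vehicle, rose by 2.39.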
